A study of Mus musculus with 6 samples.

Results

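Interferon-stimulated antiviral genes are the genes that cells switch on after an interferon has bound its receptor. The expression of 44 of them was examined in mouse macrophages that had received a control siRNA or an siRNA against NCOA4, the cargo receptor that carries ferritin to the autophagosome. The 44 genes were taken by name from a list of interferon-induced effectors, RNA sensors, STAT and IRF transcription factors and interferon-inducible GTPases. They were chosen with earlier results of these data known, so shares set beside those of all genes are descriptions. All 44 were found among the 55487 genes with a deposited value, and 40 of them were among the 13829 genes that reached a mean of 0.5 TPM over the libraries and were tested. TPM is the number of reads on a gene divided by its length and scaled to the same total in each library, so that levels of different genes can be compared.

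The cells were J774, a mouse macrophage line, kept without an added interferon, pathogen or erythrocyte as far as the labels say. Both groups had siRNA delivered in liposomes, the control group a negative control siRNA (n = 3) and the other an siRNA to NCOA4 (n = 3), and no other genotype or treatment is labelled. As a model this is a single line (clone E) with a single siRNA against the target and no untransfected cells, so an effect of transfection that both groups share was not measured, and an effect of this siRNA on other transcripts cannot be told apart from that of losing NCOA4. The labels call the replicates biological, with no further detail on separate cultures, and p-values measure only the spread between these samples.

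Type I interferons act on the IFNAR receptor, whose kinases JAK1 and TYK2 phosphorylate STAT proteins, among them STAT2. Together with IRF9, STAT2 is part of a complex that binds the interferon-stimulated response element (ISRE) in the promoters of antiviral genes. Interferon γ acts on another receptor and through promoters that hold the gamma-activated site (GAS), as that of Irf1 does. Many of the induced proteins stop viral RNA from being made or translated, and others, such as RIG-I and IRF7, help the cell to sense a virus or to make more interferon. Macrophages are known for a low constant output of these transcripts, which microbial products raise.

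The ISRE and GAS letters were looked for in the RefSeq promoters of the members (GRCm38.p6, 250 bases before to 50 after the transcription start). Promoters were found for 36 of the 44 genes, 45 promoters in all. The windows that follow are shown because they hold the best-known route by which interferon reaches these genes, in members that passed the test described further on (Irf1 and Trim30a), in members that are common readouts of an interferon response (Isg15, Ifit1, Rsad2 and Cxcl10) and in 2 neighbouring GTPase genes. Each is written 5′ to 3′ on the strand of its gene, with the match in capitals, which is a GAS in the first and an ISRE in the others.
Irf1, chr11:53769914-53769943, plus strand: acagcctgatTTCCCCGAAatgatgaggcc
Trim30a, chr7:104465210-104465239, minus strand: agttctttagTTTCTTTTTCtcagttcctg
Isg15, chr4:156200871-156200900, minus strand: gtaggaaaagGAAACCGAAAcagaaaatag
Ifit1, chr19:34640794-34640823, plus strand: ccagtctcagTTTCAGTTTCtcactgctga
Rsad2, chr12:26456553-26456582, minus strand: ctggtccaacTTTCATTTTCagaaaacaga
Cxcl10, chr5:92349083-92349112, minus strand: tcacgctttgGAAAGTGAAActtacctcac
Igtp, chr11:58199512-58199541, plus strand: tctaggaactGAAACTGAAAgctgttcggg
Irgm2, chr11:58214903-58214932, plus strand: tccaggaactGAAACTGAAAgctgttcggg

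The ISRE was searched as GAAA, any 2 bases and GAAA again, on either strand, and stood in 20 of the 45 member promoters (44.4%), against 3.44% of all 32851 promoters of the same length. The GAS was searched as TTCNNNGAA, which reads the same on both strands, and stood in 12 of the 45 (26.7%), against 8.3% of all promoters. Among the GTPase genes, 6 of 7 had an ISRE in the window. The ISRE matches of Isg15 overlap one another, as do those of Bst2, Oas1a, Irgm1 and Gbp3, and the GAS of Bst2 shares bases with its ISRE. A match is a description of the letters and was not tested as a binding site. The tested members with an ISRE in the window numbered 16 and had a median log2 fold change of 0.14, and the 17 with a promoter but no match had 0.11. Of the members that passed the test, Trim30a had an ISRE, Irf1 had a GAS 90 bases before its start, and Irf7 and Uba7 had neither set of letters in this window.

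Reads on genes, rebuilt from TPM and gene length, ranged from 15738588 to 18563192 per library, which makes a single read on 2 kb of exon equal to 0.0825 to 0.0959 TPM. On Ncoa4 itself there were 1062, 1277 and 1095 reads in the controls and 524, 439 and 502 after NCOA4 siRNA, a log2 fold change of -1.21 (adjusted p = 0.00127). All 8 macrophage markers were present, while 15 of 26 markers of other blood and tissue cells were at 0 in every library and 2, S100a8 and Cdh5, had a mean of at least 0.5 TPM. The summed TPM of those 26 markers was 20.2 to 26.1 with control siRNA and 17.2 to 20.9 with NCOA4 siRNA. Most of this sum was S100a8, at 23.8, 25.2 and 18.8 TPM in the controls and 19.4, 15.3 and 19.6 TPM after NCOA4 siRNA, which overlap. The neutrophil markers S100a9 and Ly6g were at 0 in every library. Of the 8 macrophage markers Csf1r, Adgre1 and Fcgr1 passed the test and were higher with NCOA4 siRNA, where 5.42% of all genes tested passed in either direction. Itgam, Lyz2 and Ptprc were higher in every NCOA4 siRNA library than in any control without passing, where 16.6% of all genes tested were. With limma-voom their adjusted p was 0.0942, 0.0378 and 0.0387. Spi1 overlapped, and Cd68 was lower in every NCOA4 siRNA library, where 11.8% of all genes tested were. Cd68 had a log2 fold change of -0.22 (adjusted p = 0.178, and 0.0352 with limma-voom). With limma-voom 10.5% of all genes passed. The part of these markers in the results below was not tested. Control replicate 1 stood apart from the other libraries, with 12.9% of its TPM on the mitochondrial genome against 9.36% to 10.2%, and with a chi-square per gene of 11.4 to 11.5 against the other controls, where these differed from each other by 3.54 and NCOA4 siRNA replicates by 1.93 to 2.35.

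The antiviral genes spanned a wide range of levels in J774 cells. Bst2 (tetherin, which holds budding virus on the cell surface) and Trim25 (a ubiquitin ligase of the RIG-I pathway) had the highest mean over the 6 libraries, 136 and 135 TPM. Another 13 members lay between 10 and 100 TPM, 25 between 0.5 and 10 TPM, and 4 below 0.5 TPM. Zbp1, at 0.616 TPM, was just inside the level for the test and Gbp3, at 0.475 TPM, just outside it. The median of the 44 was 6.21 TPM, against 16.9 TPM for all genes tested. In the order of levels, 38 of the 43 pairs of neighbours overlapped in their range over the 6 libraries. The other 5 included the step from Trim25 to Oas1a, at 59.4 TPM, and the step from Ifit2, at 4.42 TPM, to Ifih1, at 2.74 TPM. Some of the classical readouts of an interferon response were low: Ifit1 averaged 0.921 TPM, Rsad2 0.952 TPM, Ifit3 0.897 TPM and Mx1 0.137 TPM.

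**Figure D1:**
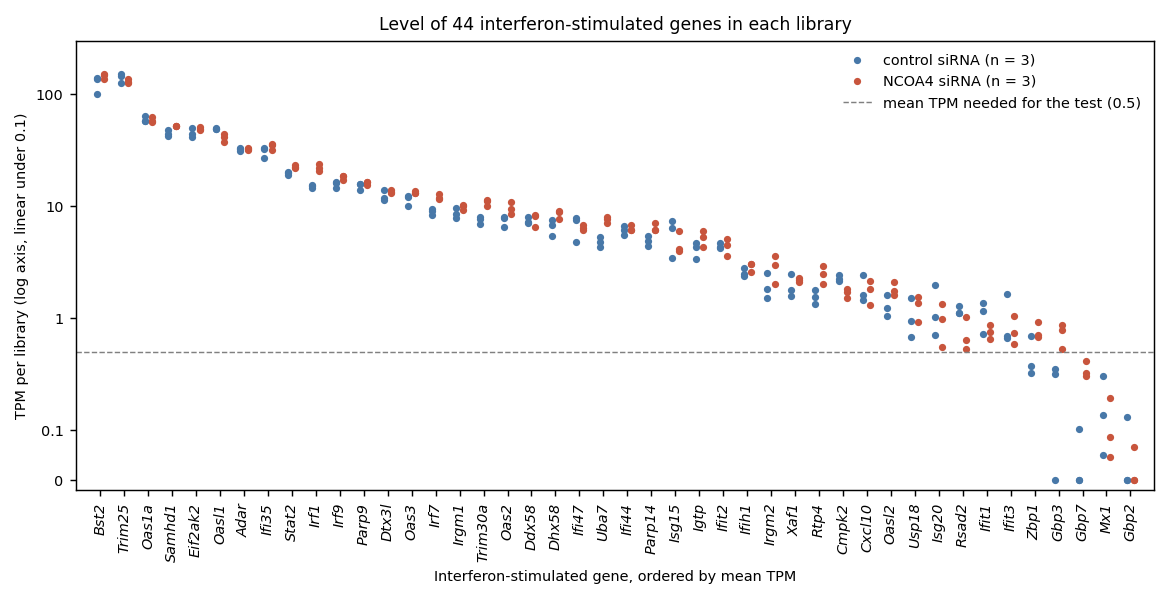
TPM of the 44 interferon-stimulated genes in each of the 3 control siRNA libraries (blue) and the 3 NCOA4 siRNA libraries (red), on a log axis that is linear under 0.1, with genes ordered by their mean. Bst2 and Trim25 lie above 100 TPM, and Gbp3, Gbp7, Mx1 and Gbp2 lie below the mean of 0.5 TPM that the test required.

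Whether these genes differed between NCOA4 siRNA and control siRNA was tested with limma on log2(TPM + 0.5) over all 13829 genes, with Benjamini-Hochberg adjustment. Fold changes are on this scale, which understates the change of genes with low TPM. Of the 40 members tested, 4 passed at an adjusted p under 0.05, and all 4 were higher with NCOA4 siRNA: the transcription factors Irf1 and Irf7, the ISG15-activating enzyme Uba7, and the TRIM protein gene Trim30a. That is 10.0% of the members tested, where 5.42% of all genes tested passed and 3.11% passed as higher. No member passed as lower, against 2.31% of all genes (0.318% with a fold over 1.5). At an unadjusted p under 0.05, 12 members were higher and 2 lower, and the background for either direction was 21.6%. With limma-voom on the rebuilt reads 6 members passed as higher and 1 as lower, against 5.06% and 5.42% of all genes.

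Only Uba7 also passed a fold of 1.5, against 1.18% of all genes in either direction and 0.861% as higher. Taken as one distribution, the 40 members had a median log2 fold change of 0.15, where the median of all genes was 0.031, and 28 of them (70.0%) lay above 0, where 57.4% of all genes did. In 13 members every NCOA4 siRNA value was above every control value, in 3 every value was below, and in 24 the groups overlapped. Over all genes tested, 16.6% did not overlap and were higher and 11.8% did not overlap and were lower. These shares are the background for each tested gene below whose groups do not overlap. The 95% interval of the change stayed within 1.5-fold in either direction for 22 of the 40 members, reached past 1.5-fold higher for 13 and past 1.5-fold lower for 6. For a single gene the exact two-sided permutation test over the 20 arrangements of 6 libraries cannot go below p = 0.1, which is the value of every gene whose groups do not overlap.

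**Figure D2:**
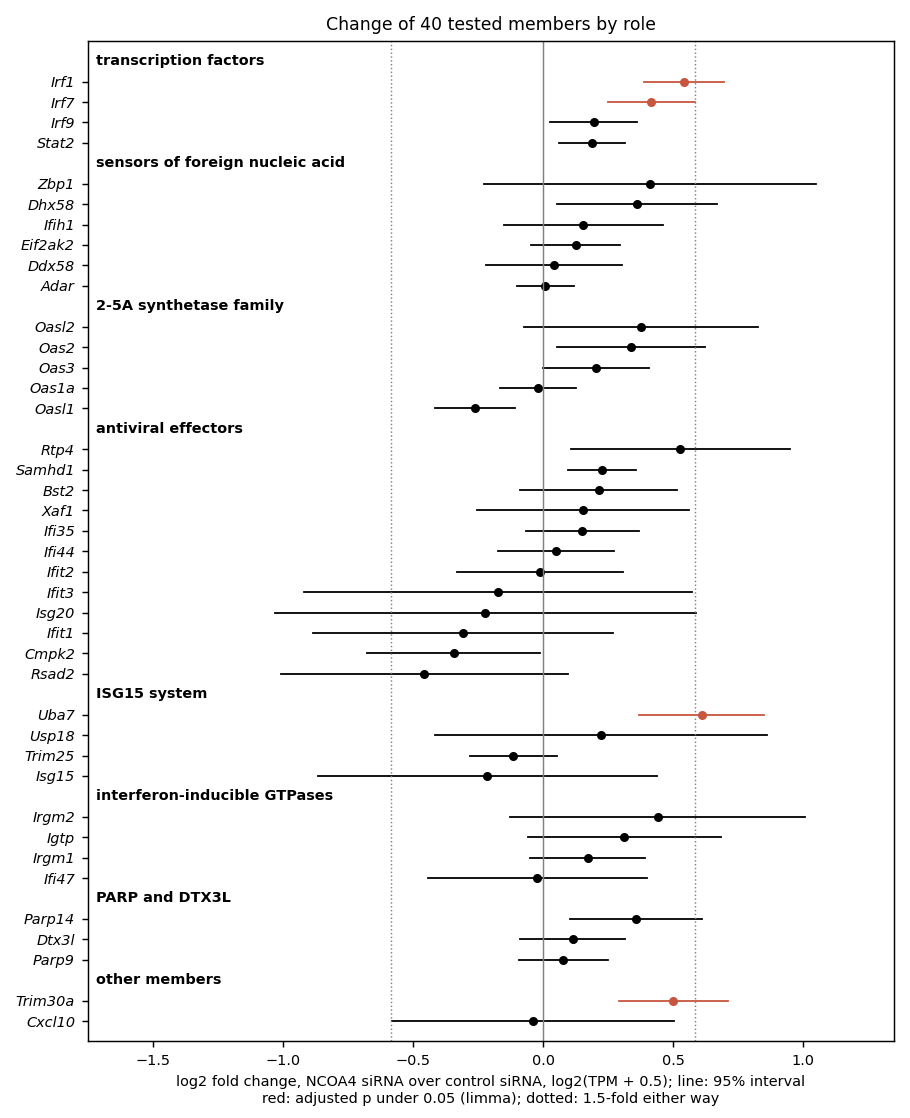
Log2 fold change of NCOA4 siRNA over control siRNA for the 40 members tested, by role, on log2(TPM + 0.5), with 95% intervals from limma. Irf1, Irf7, Uba7 and Trim30a, in red, had an adjusted p under 0.05, and dotted lines mark a fold of 1.5 either way.

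The calls changed when 1 library was left out. Across these fits the log2 fold change ran from 0.50 to 0.59 for Irf1, 0.37 to 0.45 for Irf7, 0.54 to 0.68 for Uba7 and 0.44 to 0.56 for Trim30a. With 1 library left out the number of members that passed was 4 without control replicate 1 or control replicate 2, 2 without control replicate 3, 1 without NCOA4 replicate 1 or NCOA4 replicate 3, and 0 without NCOA4 replicate 2. Calls over all genes ranged from 127 to 807 in these fits, against 750 with all libraries, and came to 5.84% of the genes tested without control replicate 1. Measured against the mean of the controls, the median of the 40 members was 0.11, 0.14 and 0.22 in NCOA4 siRNA replicates 1 to 3 and -0.057, 0.10 and -0.033 in the controls, so that control replicate 2 came close to the lowest NCOA4 siRNA library. Control replicate 1 was the lowest control in 19 of the 40 members. Without it the median log2 fold change over the members was 0.11, and the value of 16 members moved by over 1.5 times, none of them among the 4 that passed. In 7 of the 16 it came closer to 0: Bst2 went from 0.21 to 0.061, Usp18 from 0.22 to 0.048, Ifi35 from 0.15 to 0.059, Dhx58 from 0.36 to 0.24, Irgm1 from 0.17 to 0.10, Dtx3l from 0.11 to 0.058 and Ddx58 from 0.042 to 0.012. In 8 it went farther below 0, among them Isg15 from -0.21 to -0.51, Ifit1 from -0.31 to -0.48, Ifit3 from -0.17 to -0.31, Ifi47 from -0.022 to -0.23 and Trim25 from -0.12 to -0.19, with Oas1a, Ifit2 and Cxcl10 between -0.094 and -0.036. Isg20 changed sign, from -0.22 to 0.064.

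**Figure D3:**
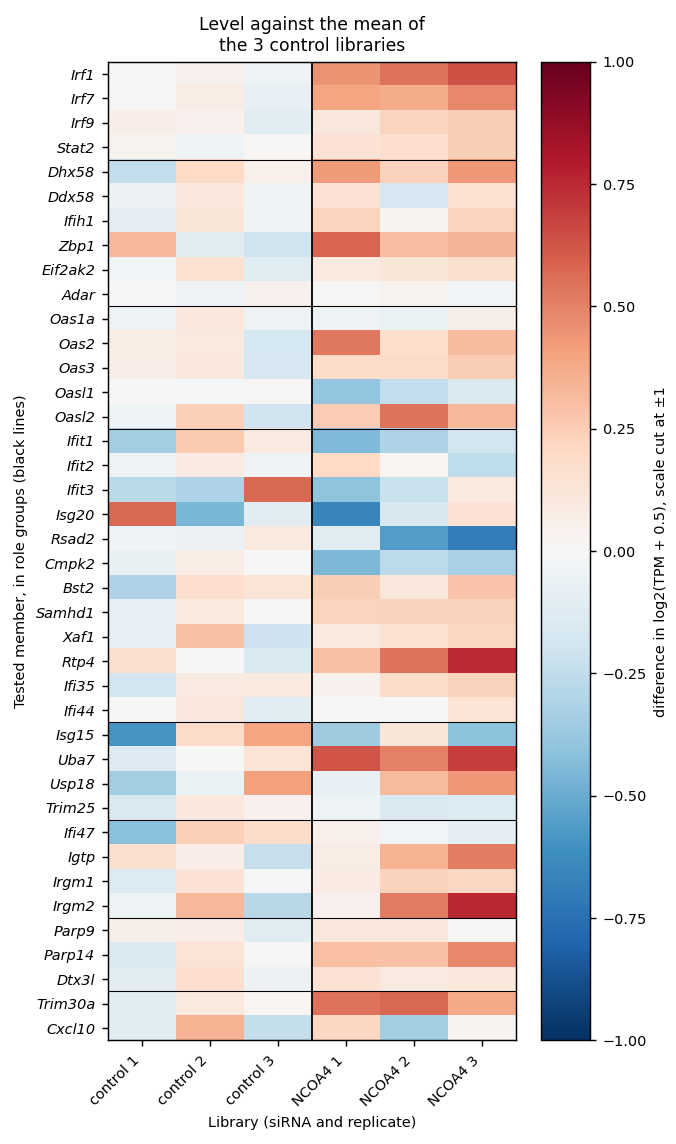
Difference of each library from the mean of the 3 control libraries, in log2(TPM + 0.5), for the 40 members tested, grouped by role. The rows of Irf1, Irf7, Uba7 and Trim30a are red in all 3 NCOA4 siRNA libraries, the rows of Oasl1, Rsad2 and Cmpk2 are blue in all 3.

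The 4 transcription factors among the members were each higher in every NCOA4 siRNA library than in any control, where 16.6% of all genes tested were, and 2 of them passed the test as higher, against 3.11% of all genes. Irf1, which interferon γ induces and which itself drives many interferon-stimulated promoters, had 15.1, 15.6 and 14.6 TPM in control siRNA replicates 1 to 3 and 20.8, 22.2 and 23.7 TPM in NCOA4 siRNA replicates 1 to 3. The groups were well separated, and Irf1 rose from 15.1 ± 0.472 to 22.2 ± 1.47 TPM (SD, n = 3). Its log2 fold change was 0.54, with a standard error of 0.0645 and an adjusted p of 0.00776. Of the fits with 1 library left out, it lost the call in the one without NCOA4 replicate 2 (adjusted p = 0.0548), and it also missed the threshold with the replicate number as a block (0.0515). Irf7, the factor that amplifies transcription of interferon genes, had 9.04, 9.44 and 8.43 TPM with control siRNA and 12.0, 11.7 and 12.7 TPM with NCOA4 siRNA. These values do not overlap either, and Irf7 rose from 8.97 ± 0.507 to 12.1 ± 0.530 TPM (SD, n = 3), which is 0.42 on the log2 scale (standard error 0.0709, adjusted p = 0.0237). The adjusted p of Irf7 was 0.066 without control replicate 3 and 0.0996, 0.0934 and 0.108 without NCOA4 replicates 1 to 3.

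Stat2, a subunit of the complex that binds the ISRE, had 20.3, 19.1 and 19.9 TPM with control siRNA and 21.9, 22.3 and 23.6 TPM with NCOA4 siRNA, a log2 fold change of 0.19 (adjusted p = 0.102). Irf9, its DNA-binding partner, had 16.5, 16.2 and 14.6 against 17.0, 18.4 and 18.8 TPM, a log2 fold change of 0.19 (adjusted p = 0.179). Both sets of values are close together, and neither gene passed. Exons of Irf1 and Irf7 overlap those of a gene on the opposite strand over 3.4% and 1.19% of their length. The libraries were stranded, and whether counting used the strand is not given in the sources used here.

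The sensors of foreign nucleic acid, with the RNA-editing enzyme Adar counted among them, had a median log2 fold change of 0.14. Of these 6 genes, 0 passed (1 at an unadjusted p under 0.05, and 0 with limma-voom). Eif2ak2 (PKR, the kinase that halts translation when it binds viral RNA) was the most abundant, at 44.3, 50.0 and 41.3 TPM with control siRNA and 48.3, 49.0 and 50.5 TPM with NCOA4 siRNA, and the groups overlapped. Ddx58 (RIG-I) and Ifih1 (MDA5), helicases that start interferon production, had log2 fold changes of 0.042 and 0.16. Dhx58 (LGP2), their regulator, was the only sensor without overlap between groups, at 5.43, 7.56 and 6.80 against 8.95, 7.74 and 9.02 TPM. Its log2 fold change was 0.36 (adjusted p = 0.171), and the lowest NCOA4 siRNA value lay just above the highest control. Adar, which edits adenosines in duplex RNA, had a log2 fold change of 0.0081 with a 95% interval of -0.10 to 0.12. Zbp1, a receptor for Z-form nucleic acid, had between 6 and 19 reads per library and an interval of -0.23 to 1.05.

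The oligoadenylate synthetase family makes oligoadenylates, a messenger of the antiviral state, and 0 of its 5 members passed the limma test in either direction (2 higher and 1 lower at an unadjusted p under 0.05, and 1 lower with limma-voom). Oas1a was the most abundant, at 57.6, 64.3 and 57.7 TPM with control siRNA and 57.7, 57.0 and 62.3 TPM with NCOA4 siRNA. These values overlap throughout, the log2 fold change was -0.019, and 40.9% of the 100-base stretches of Oas1a also occur in its copy Oas1g. Oas2 and Oas3, larger synthetases, had log2 fold changes of 0.34 (adjusted p = 0.168) and 0.20 (adjusted p = 0.23), and Oasl2 had 0.38 (adjusted p = 0.308). Oas2, Oas3 and Oasl2 were each higher in every NCOA4 siRNA library than in any control, where 16.6% of all genes tested were.

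Oasl1, a family member without synthetase activity that is known to limit IRF7 translation, differed in direction. It had 49.4, 48.8 and 49.5 TPM with control siRNA and 37.5, 41.4 and 44.4 TPM with NCOA4 siRNA. The controls agree closely and all 3 NCOA4 siRNA libraries lie below them, with a log2 fold change of -0.26 (standard error 0.0645). Its adjusted p was 0.0713, which missed the threshold, and it was 0.0456 with libraries centred on their median and 0.0167 with limma-voom.

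Antiviral effectors were the largest role group, with 12 of 13 tested, a median log2 fold change of 0.019, 6 members on either side of 0, and none that passed (2 higher and 1 lower at an unadjusted p under 0.05, and 1 higher with limma-voom). Bst2 had 101, 141 and 138 TPM with control siRNA and 149, 136 and 153 TPM with NCOA4 siRNA. The lowest value was that of control replicate 1, the groups overlapped, and the log2 fold change was 0.21 (adjusted p = 0.382) with all libraries and 0.061 (adjusted p = 0.585) without control replicate 1. Samhd1, which breaks down the nucleotides that viral DNA synthesis needs, rested on the most reads of the group and had 42.0, 47.8 and 44.1 TPM with control siRNA against 52.1, 52.2 and 52.4 TPM with NCOA4 siRNA. All NCOA4 siRNA libraries were above the controls. Its log2 fold change of 0.23 (standard error 0.055) had an adjusted p of 0.0675, which was 0.0394 without control replicate 2 and 0.0134 with limma-voom.

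The IFIT proteins bind viral RNA and its cap. Ifit1 had 0.721, 1.37 and 1.16 TPM with control siRNA and 0.648, 0.760 and 0.874 TPM with NCOA4 siRNA, from 10 to 22 reads per library. The ranges overlap, and the 95% interval of its log2 fold change ran from -0.89 to 0.27. Ifit2, at 4.42 TPM in both groups, had a log2 fold change of -0.012 with an interval of -0.33 to 0.31. Ifit3 had only 6 to 15 reads per library, and 31.7% of its 100-base stretches also occur in Ifit3b.

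Rsad2 (viperin), which makes an antiviral nucleotide, and Cmpk2, a mitochondrial nucleotide kinase, lie next to each other on chromosome 12, from 26442746 to 26456452 and from 26469204 to 26479837 (GRCm38). Rsad2 had 1.13, 1.10 and 1.28 TPM with control siRNA and 1.03, 0.635 and 0.535 TPM with NCOA4 siRNA. Cmpk2 had 2.13, 2.42 and 2.26 TPM with control siRNA and 1.53, 1.81 and 1.71 TPM with NCOA4 siRNA. Both were lower in every NCOA4 siRNA library than in any control, where 11.8% of all genes tested were. Neither passed: the log2 fold changes were -0.46 (adjusted p = 0.315) and -0.34 (adjusted p = 0.218), on 14 to 29 and 37 to 61 reads per library.

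Among the other effectors, Rtp4, a chaperone-like antiviral protein, had the largest positive difference, a log2 fold change of 0.53 (adjusted p = 0.15) on 15 to 38 reads per library, with no overlap between groups. Ifi35, Xaf1, Ifi44 and Isg20 had log2 fold changes of 0.15, 0.15, 0.049 and -0.22, and their groups overlapped. Mx1, the nuclear GTPase that blocks influenza virus, had 3, 7 and 1 reads in the controls against 1, 4 and 2 after NCOA4 siRNA, too few to be tested. A difference in Mx1 was not detectable at this depth.

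**Figure D4:**
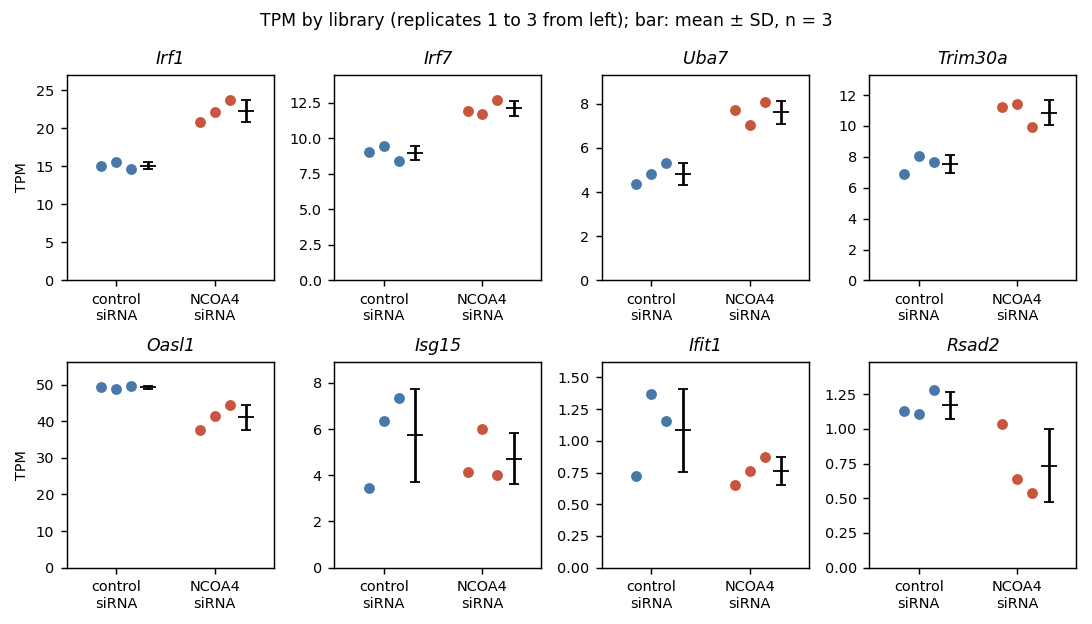
TPM of 8 members by library, with replicates 1 to 3 from left to right and the mean ± SD of each group (n = 3) beside them. Irf1, Irf7, Uba7 and Trim30a show no overlap and lie higher with NCOA4 siRNA, Oasl1 and Rsad2 show no overlap and lie lower, and Isg15 and Ifit1 overlap.

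The ISG15 system attaches the ubiquitin-like protein ISG15 to other proteins. Uba7, the enzyme that activates ISG15 for this, had 4.35, 4.81 and 5.33 TPM with control siRNA and 7.72, 7.05 and 8.07 TPM with NCOA4 siRNA. The groups were far apart, and Uba7 rose from 4.83 ± 0.493 to 7.61 ± 0.520 TPM (SD, n = 3), a log2 fold change of 0.61 and a fold of 1.53 (standard error 0.101, adjusted p = 0.0225). Its adjusted p was 0.0585 without control replicate 2 and 0.104, 0.0765 and 0.102 without NCOA4 replicates 1 to 3, and without control replicate 1 its log2 fold change of 0.54 was under 1.5-fold. A same-strand gene overlaps 3.48% of the exon length of Uba7.

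Isg15 itself had 3.47, 6.34 and 7.37 TPM with control siRNA and 4.16, 6.01 and 4.01 TPM with NCOA4 siRNA, from 14 to 27 reads per library, if its rebuilt length of 703 bases holds. The groups overlapped, and the interval of its log2 fold change of -0.21 ran from -0.87 to 0.44, with a value of -0.51 (adjusted p = 0.187) without control replicate 1. Usp18, which removes ISG15 and quiets the interferon receptor, had a log2 fold change of 0.22 (adjusted p = 0.681) on 11 to 26 reads per library. Trim25 had 127, 151 and 145 TPM with control siRNA and 135, 126 and 128 TPM with NCOA4 siRNA, which overlap, and a log2 fold change of -0.12 (adjusted p = 0.395). The enzyme that starts the ISG15 pathway was the only one of its 4 members to pass.

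Interferon-inducible GTPases attack the vacuoles in which intracellular parasites and bacteria live. Of the 7 members, 4 were tested and 0 passed (0 at an unadjusted p under 0.05, and 0 with limma-voom), with a median log2 fold change of 0.24. Irgm1 was the most abundant, at 7.85, 9.66 and 8.58 TPM with control siRNA and 9.19, 10.2 and 10.1 TPM with NCOA4 siRNA, and the groups overlapped. Its log2 fold change was 0.17 (adjusted p = 0.342), and those of Igtp, Irgm2 and Ifi47 were 0.31, 0.44 and -0.022. Igtp and Irgm2 are neighbours on chromosome 11 whose annotated exons share 162 bases on the same strand, so that their counts are not fully separate, and they carry the near-identical ISRE windows printed above.

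The guanylate-binding proteins were almost absent. Gbp2 had 0, 2 and 0 reads in the controls against 0, 0 and 1 after NCOA4 siRNA. Gbp3 had 6, 7 and 0 reads against 10, 14 and 17 reads, and Gbp7 had 0, 0 and 3 reads against 10, 10 and 14 reads. In these last 2 genes every NCOA4 siRNA library was above every control, but the shares given for all genes tested do not cover genes this low. Gbp7 was at or below the floor of 3 reads per library in all controls. Its mean with NCOA4 siRNA was 3.76 times the TPM of 3 reads, with no allowance for counting error on so few reads. Neither Gbp3 nor Gbp7 reached the level for the test: with no filter on level, the adjusted p was 0.0531 for Gbp7 and 0.208 for Gbp3, and 10.0% of the 100-base stretches of Gbp7 occur in other genes.

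Parp9 and Dtx3l encode partners in one ADP-ribosylating complex and lie head to head with Parp14 beside them on chromosome 16, and none of these 3 genes passed (1 higher at an unadjusted p under 0.05 and with limma-voom). Parp9, the most abundant, had 15.9, 16.0 and 14.0 TPM with control siRNA and 16.6, 16.4 and 15.4 TPM with NCOA4 siRNA. The groups overlap, its log2 fold change was 0.078, and that of Dtx3l was 0.11. Exons of Parp9 and Dtx3l overlap on opposite strands over 458 bases. Parp14, at 4.90 ± 0.515 and 6.41 ± 0.524 TPM (SD, n = 3), was higher in every NCOA4 siRNA library, with a log2 fold change of 0.36 (adjusted p = 0.118, and 0.0229 with limma-voom).

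Trim30a, a TRIM protein known to restrain Toll-like receptor signalling, had 6.91, 8.07 and 7.65 TPM with control siRNA and 11.2, 11.4 and 9.96 TPM with NCOA4 siRNA. The groups do not overlap, and Trim30a rose from 7.54 ± 0.589 to 10.9 ± 0.798 TPM (SD, n = 3), which is 0.50 on the log2 scale (standard error 0.0885, adjusted p = 0.0257). It missed the threshold without control replicate 3 (adjusted p = 0.0711) and without NCOA4 replicates 1 to 3 (adjusted p = 0.118, 0.121 and 0.0658). Cxcl10, the chemokine most used as a readout of interferon in macrophages, had 1.62, 2.42 and 1.45 TPM with control siRNA and 2.14, 1.30 and 1.84 TPM with NCOA4 siRNA. Its values mix between the groups, with a log2 fold change of -0.038 and a 95% interval of -0.58 to 0.50.

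The rest of the pathway was read from 124 further genes, of which 87 were tested, 12 passed as higher and 1 as lower (14.9%, against the background of 5.42%). These lists too were chosen with earlier results of these data known, so the shares are no independent evidence. The interferons themselves gave almost no reads. Ifnb1 had 1, 1 and 0 reads in the controls and none after NCOA4 siRNA, and none of the 10 interferon genes listed reached the level for the test. Neither group had more than 2 reads per library on any of these 10 genes. The receptors were well expressed and did not pass: Ifnar1 had a log2 fold change of 0.0067, Ifnar2 of 0.14, Ifngr1 of 0.12 and Ifngr2 of 0.048.

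Among the 9 tested receptor and signalling genes, 1 passed as higher and 1 as lower, where 3.11% and 2.31% of all genes tested did. The genes that passed in this paragraph are named here after their values were seen. The receptor kinase Tyk2 rose from 18.3 ± 0.497 to 24.8 ± 0.989 TPM (SD, n = 3), a log2 fold change of 0.43 (adjusted p = 0.00885), and Il10rb, a shared subunit of the interferon λ and interleukin 10 receptors, fell by 0.39 on the log2 scale (adjusted p = 0.0225). Of 16 genes that induce interferon, Tmem173 (STING, the adaptor for cytosolic DNA) rose by 0.38 on the log2 scale (adjusted p = 0.00556) and 15 did not pass. The share of this list that passed, 6.25%, was near the 5.42% of all genes tested. Of 10 tested negative regulators, the deubiquitinase gene Cyld rose by 0.37 on the log2 scale (adjusted p = 0.0273) and 9 did not pass. Tmem173 passed with any 1 library left out. Tyk2 missed the threshold without NCOA4 replicate 2 or 3 (adjusted p = 0.0542 and 0.0521), Il10rb without control replicate 2 or any NCOA4 replicate (0.0581 to 0.0968), and Cyld without any 1 of the 6 libraries (0.0524 to 0.115).

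Of 75 other interferon-stimulated genes, 52 were tested, 9 passed as higher and 0 as lower, which is 17.3% against 5.42% of all genes tested. At an unadjusted p under 0.05, 19 were higher and 2 lower, against 21.6% of all genes, and with limma-voom 11 were higher and 0 lower, against 10.5%. Ifi27l2a, a small interferon-induced membrane protein gene, had 3.76, 4.99 and 5.39 TPM with control siRNA and 13.0, 11.5 and 12.9 TPM with NCOA4 siRNA. It rose by 1.33 on the log2 scale (standard error 0.132, adjusted p = 0.00462), with no overlap between the groups. Ifi27l2a had few reads, 10, 14 and 13 in the controls and 35, 29 and 36 after NCOA4 siRNA. It passed with any 1 library left out and was past 1.5-fold. In this list 23 genes were too low to test, among them Gbp4, Gbp5 and Cxcl9, which were at 0 in every library, while Ifitm3, which blocks viral entry, was at 1915 TPM with a log2 fold change of 0.040 (adjusted p = 0.816).

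**Figure D5:**
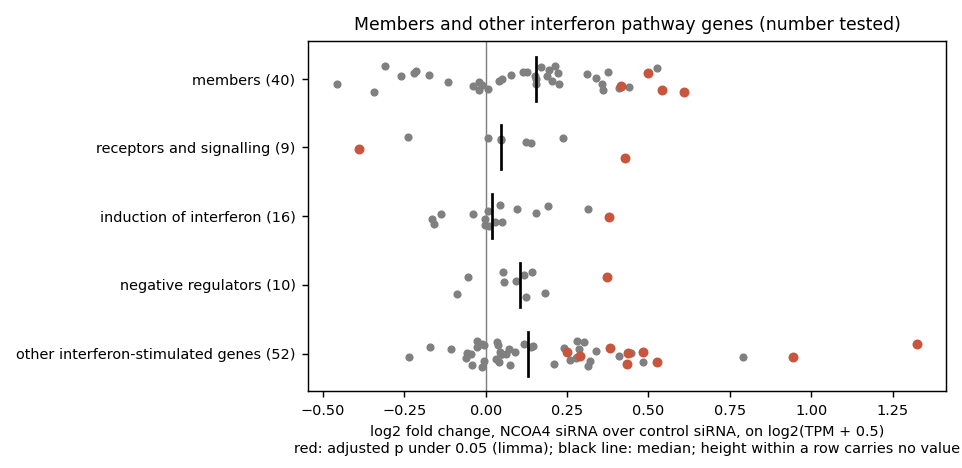
Log2 fold change of each tested gene, NCOA4 siRNA over control siRNA, for the 40 members and for 4 lists of other interferon pathway genes, with the median as a black line and genes with an adjusted p under 0.05 in red. The medians are 0.15 for the members, 0.048, 0.019 and 0.11 for the receptor, induction and negative regulator lists, and 0.13 for the other interferon-stimulated genes, of which Ifi27l2a lies farthest to the right.

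The RNA came from whole cultures, so that a change in the share of responding cells and a change in RNA per cell cannot be told apart.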

How the data were processed

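RNA-seq libraries (stranded, poly(A)-selected) of J774 cells transfected with control siRNA or NCOA4 siRNA were compared, 3 of each, grouped by the labelled treatment. The authors deposited TPM per Ensembl gene for each library. The submitters' processing notes name Trimmomatic 0.33, FastQC, HISAT2 2.1.0, featureCounts, edgeR and the build mm10, without the role of each, and the annotation is not given in the sources used here. Symbols, coordinates and exon lengths came from GENCODE M21 (GRCm38), which named 55227 of the 55487 genes. Mb21d1 was matched under its RefSeq name Cgas.

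Whole reads were rebuilt from TPM and exon length. Of 21096 genes above 0, 98.5% gave whole reads (within 0.02) with the GENCODE length, 325 with a length solved from the values, which may be off by a multiple, and 1 could not be rebuilt. The rebuilt reads were not used for the intervals given for log2 fold changes, which came from limma and rest on the spread between libraries. As the floor, 3 reads per library were taken.

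Genes with a mean of at least 0.5 TPM were tested with limma 3.58.1 (R 4.3.3) on log2(TPM + 0.5), by lmFit and trended eBayes with no block, and with Benjamini-Hochberg adjustment over all 13829 genes. edgeR was not run here. The deposited values are TPM, and the reads rebuilt from them were tested with limma-voom. On simulated data the test found 52.0% of genes changed 1.5-fold, 85.1% of those changed 2-fold and 92.0% of those changed 3-fold, with a mean of 9.2, 15 and 13.2 wrong calls among 13847, 13845 and 13832 genes. The simulation gave all genes and libraries the same fixed spread beyond counting, with no outlying library such as control replicate 1. It left the genes lowest in TPM unchanged, so these rates need not hold for the real libraries. The alternatives tried were limma-voom with TMM on the rebuilt reads, other pseudocounts (1 and 0.1), other filters (none, or a mean of 5 TPM), other scalings (median centring and quantile normalization), a block on replicate number, and the removal of any 1 library.

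The members and lists were chosen with earlier results of these data known. All 44 members are named. Values per library are given for members that passed, for the most abundant member of each role group, for Irf7, Stat2, Isg15, Ifit1, Rsad2, Mx1 and Cxcl10, for Ncoa4, and for other members chosen after their values were seen. Of the pathway lists, Ifnb1, Ifnar1, Ifnar2, Ifngr1, Ifngr2 and genes with an adjusted p under 0.05 and a fold over 1.5 are named, and other names were chosen after their values were seen. Not every gene so selected is reported here. Promoters came from RefSeq, and motif searches and shared 100-base stretches of transcripts used Python 3.11.15.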

Additional observations from a re-analysis of the deposited data

How the results depend on the processing

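Median log2 fold changes over the members stayed between 0.097 and 0.20 in every alternative run, and that of Ncoa4 between -1.27 and -1.18 with any 1 library left out. Against 4 members at an adjusted p under 0.05, 2 passed with no filter (Uba7 and Trim30a missed at 0.0542 and 0.0568) and 7 with limma-voom, and leaving out 1 library gave 0 to 4. Against 1 member that also passed a fold of 1.5, 0 did with a pseudocount of 1, no filter, median centring or quantile normalization, and 0 to 1 with a library left out. Against 13 pathway genes, 4 to 13 passed with a library left out. With the replicate number as a block 0 members passed by either rule and 3 pathway genes passed, against 161 of all genes, and Irf1 had an adjusted p of 0.0515. The labels do not say whether the numbers pair the libraries. Deviations from the group mean correlated by 0.028, -0.019 and 0.023 between libraries with the same number. With group means from only 3 libraries, these correlations cannot decide whether libraries with the same number were handled together. The cause of these losses was not tested, other than that a left-out library or a block leaves fewer degrees of freedom. Over the 14 alternatives Irf1 passed in 12, Irf7 in 9, Uba7 in 8 and Trim30a in 8.

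Scaling by the median lowered log2 fold changes by 0.058 and quantile normalization by 0.046. With these, signs changed only in members close to 0: Ddx58, Adar and Ifi44 went to -0.016, -0.050 and -0.0086 with median centring and to -0.023, -0.031 and -0.028 with quantile normalization, and Adar to -0.018 with limma-voom. Across the 6 fits with a library left out, the log2 fold change ran from -0.014 to 0.15 for Ddx58, -0.016 to 0.030 for Adar, -0.059 to 0.033 for Oas1a, -0.12 to 0.11 for Ifit2, -0.33 to 0.11 for Ifit3, -0.45 to 0.064 for Isg20, -0.0084 to 0.11 for Ifi44, -0.23 to 0.099 for Ifi47 and -0.16 to 0.14 for Cxcl10. Depth limits Ifit1, Ifit3, Isg20, Rsad2, Zbp1, Usp18 and Isg15, which had under 30 reads in every library.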
